A study of Homo sapiens with 18 samples.

Results

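The RNA of MDA-MB-231 cells with unaltered JAG1 was described from 6 libraries, out of 18 in the series. They were 3 replicates of untransfected parental cells (Jag1WT) and 3 replicates of the same parental cells transfected with a nontargeting siRNA (siCtrl), so that the genome of both groups was that of the parental line. The libraries were chosen by their labels and not by any measured value, and the 12 libraries of Jag1KO, Jag1KO + rescue, Jag1KO + ctrl and siJag1 cells were used only where they are named. Each culture had been seeded with 50000 cells in Matrigel (2 mg/ml) and was grown for 7 days, with fresh medium on day 4, before the spheroids were taken out of the gel for isolation of RNA. The labels call the replicates biological. The study was set up to learn how the Notch ligand Jagged1 acts on the growth, invasion and matrix of triple-negative breast cancer (TNBC) cells, and the 6 libraries are its state with Jagged1 left in place.

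MDA-MB-231 is an established human breast cancer line that is widely used as a model of TNBC, the subtype without estrogen receptor, progesterone receptor or amplified HER2. Its cells are spindle-shaped and invasive. In Notch signaling a ligand of the Jagged or Delta-like family on one cell binds a Notch receptor on its neighbor, gamma-secretase then releases the intracellular part of the receptor, and this fragment turns on genes of the HES and HEY families in the nucleus. Matrigel is a gel of basement membrane proteins from a mouse tumor, so that the cells grew in contact with laminin and collagen IV they had not made themselves. The gel is a protein matrix, and the levels below are those of human transcripts.

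Levels are given as RPKM, reads per kilobase scaled to the depth of the library, with 1 length per gene. Genes of different length can be compared only as far as that length matches the transcripts present, which was not tested. Ratios between genes therefore also depend on the lengths used. The values are means ± SD of the 6 libraries unless stated otherwise, and a rank of 1 is that of the most abundant of 21411 genes. No test between groups was run, since the 6 libraries were described as they are. Between 13336576 and 15328059 reads per library had been assigned to genes. The order of genes was nearly the same in every library, with rank correlations of 0.970 to 0.993 across the 10892 genes that reached 1 RPKM in all 6 (15 pairs of libraries, a description across genes that are not independent). No library repeated another, because in each of the 15 pairs the counts differed far beyond sampling noise, by a chi-square of 4.19 to 31.0 for each degree of freedom.

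Of the 21411 genes, 10892 (50.9%) were at or above 1 RPKM in each of the 6 libraries. The counts of passing members of gene families and lists below are to be read beside this share. A further 9103 genes were below 1 RPKM in all 6, and 1416 were above it in some libraries and below it in others. Abundance was concentrated in few genes, as the curve of abundance against rank shows. The 38 genes with a mean of at least 1000 RPKM held 26.5% of the summed RPKM, and the 511 genes from 100 to 1000 RPKM held 32.4%. Together these 549 genes were 2.56% of all genes. The 4690 genes from 10 to 100 RPKM held 33.6%, and the 6343 genes from 1 to 10 RPKM held 7.07%. The median was 1.54 RPKM over all genes and 9.43 RPKM over those at or above 1 RPKM in every library. Of protein coding genes 10117 of 16591 (61.0%) were at or above 1 RPKM in all 6 libraries, and of long noncoding RNAs 302 of 2439 (12.4%).

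**Figure D1:**
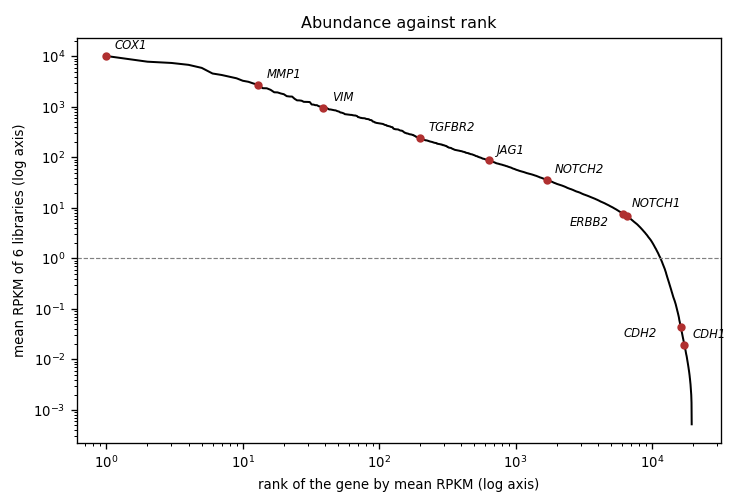
Mean RPKM of the 6 libraries (vertical log axis) against the rank of each gene (horizontal log axis); red points mark named genes and the dashed line is 1 RPKM. COX1 stood at 10211 RPKM and MMP1 at 2749 RPKM, JAG1 at 87.3 RPKM had rank 635, and CDH1 and CDH2 lay on the steep end of the curve below 0.1 RPKM.

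The most abundant transcripts came from the mitochondrial genome. It supplied the first 10 places and 13 of the first 25, and its 37 genes in the table held between 15.47% and 18.9% of the summed RPKM of a library. COX1, a subunit of the last complex of the respiratory chain, led with 10211 ± 864 RPKM. It was followed by COX2 with 7882 ± 1214 RPKM and COX3 with 7441 ± 996 RPKM, further subunits of that complex, and by ATP6 of the ATP synthase with 6829 ± 1172 RPKM. The share of mitochondrial transcripts was higher in siCtrl 2 (18.9%) and siCtrl 3 (18.7%) than in the other 4 libraries (15.47% to 15.9%). ATP8 and ND4L have overlapping reading frames with their neighbors, so that reads in the overlap cannot be given to either with certainty.

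The nuclear genes among the first 25 were 12, with roles in iron storage, translation, the cytoskeleton, chromatin, glycolysis, metal binding, matrix breakdown and leukocyte attraction. FTL, the light chain of the iron store ferritin, was the most abundant of them with 3151 ± 358 RPKM, and the heavy chain FTH1 stood at 1955 ± 334 RPKM. EEF1A1, which brings aminoacyl-tRNA to the ribosome, had 2909 ± 240.4 RPKM. MMP1, the interstitial collagenase that cuts fibrillar collagens, ranked 13 of all genes with 2749 ± 583 RPKM, between EEF1A1 and mitochondrial CYTB. The calcium-binding S100A6 (2344 ± 77.1 RPKM), the actin monomer-binding TMSB10 (2183 ± 162 RPKM) and the chromatin protein HMGA1 (1942 ± 173 RPKM) came next. GAPDH, the glycolytic enzyme often used as a reference, was at 1849.8 ± 307 RPKM, and the metallothionein MT2A at 1612 ± 224 RPKM. CXCL8, the neutrophil chemokine interleukin-8, held rank 24 with 1450.0 ± 171 RPKM, beside the ribosomal protein genes RPS18 (1606 ± 108 RPKM) and RPLP0 (1352 ± 83.6 RPKM).

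The order within the first 25 was less firm than the list itself. Of 24 neighboring pairs, 9 kept their order in all 6 libraries, and in 2 pairs (COX1 over COX2, and ND4 over RNR2) the difference of the means was larger than the larger SD of the pair. CYTB and S100A6 differed by 11.2 RPKM, far less than the SD of CYTB, and FTH1 and HMGA1 by 13.4 RPKM. EEF1A1 was above MMP1 in 3 of 6 libraries. The plot of the 25 genes by library shows these overlaps. Without division by length, 15 of these 25 genes were still among the 25 with the most reads, and EEF1A1 and MMP1 then ranked 2 and 6, whereas short transcripts such as ND3 (222) and MT2A (160) fell far back.

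**Figure D2:**
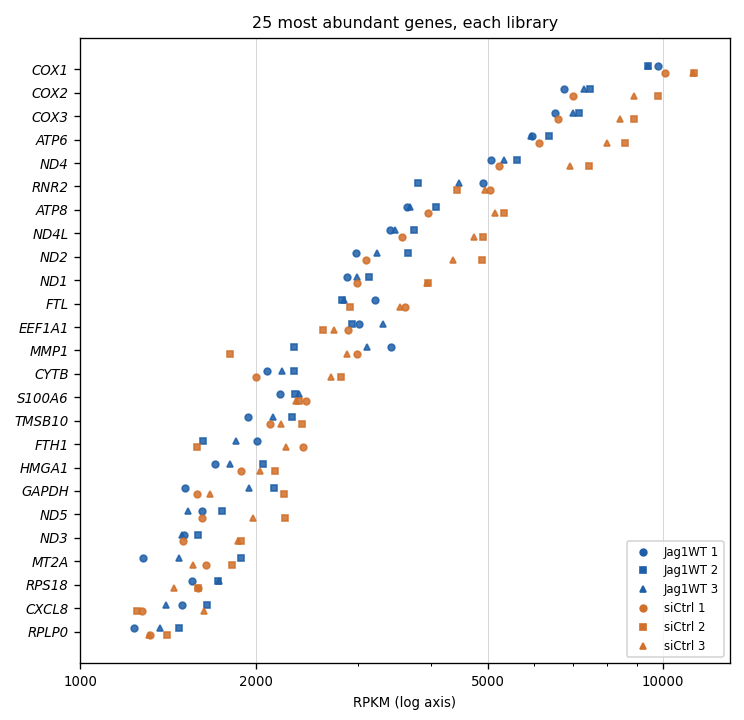
RPKM (horizontal log axis) of the 25 most abundant genes, with 1 point per library: blue for Jag1WT and orange for siCtrl, and circle, square and triangle for replicates 1, 2 and 3. The points of COX1 are the farthest to the right, and those of neighboring genes from FTL to RPLP0 overlap along the axis.

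Outside the mitochondrial genome the upper ranks were held by the machinery of translation, the cytoskeleton and the redox system. Of 86 measured ribosomal protein genes, 85 were at or above 1 RPKM in every library, with a median of 360.3 RPKM, and 32 of them were among the first 100 genes. All 19 glycolytic enzymes and glucose transporters of the list passed 1 RPKM, led by GAPDH, ENO1 (927 ± 96.5 RPKM), PKM (715 ± 50.2 RPKM) and LDHA (602 ± 115 RPKM), which turns pyruvate into lactate. The nuclear-encoded subunits of oxidative phosphorylation were present at or above 1 RPKM in 79 of 83, with a median of 44.9 RPKM. In the actin and tubulin list 37 of 40 genes passed, among them TMSB4X (1264 ± 84.8 RPKM), ACTG1 (963 ± 93.8 RPKM), ACTB (773 ± 48.1 RPKM) and CFL1, an actin-severing protein, at 682 ± 63.5 RPKM. All 22 genes of the ferritin and redox list passed too, with SOD2, the manganese superoxide dismutase, at 272 ± 28.3 RPKM. Of 14 MHC class I genes 14 passed, with B2M, the light chain of the complex, at 416 ± 18.1 RPKM. MHC class II genes passed in 9 of 13. Their invariant chain CD74 had 158 ± 40.9 RPKM, and HLA-DRA, which presents peptides mainly on antigen-presenting cells, had 42.2 ± 7.51 RPKM.

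The lineage markers gave a mixed picture, with high mesenchymal genes beside a few simple keratins and without the main epithelial cadherin. Of 14 mesenchymal markers 11 were at or above 1 RPKM in every library, with a median of 52.6 RPKM, and of 20 luminal epithelial markers 12, with a median of 2.53 RPKM. VIM, the intermediate filament of mesenchymal cells, measured 793, 1061 and 1029.6 RPKM in Jag1WT replicates 1, 2 and 3 and 858, 1141 and 931 RPKM in those of siCtrl (969 ± 132, n = 6). All 6 values lay within the first 46 ranks. KRT19, a keratin of simple epithelia, measured 128, 161 and 173 RPKM in Jag1WT replicates 1, 2 and 3 and 137, 165 and 128 RPKM in those of siCtrl (149 ± 20.03, n = 6). VIM exceeded KRT19 in 6 of 6 libraries, by 6.53 ± 0.492 times, and KRT18 (89.9 ± 4.86 RPKM) by 10.7 ± 0.926 times. LGALS1, a galactose-binding lectin, had 833 ± 92.2 RPKM, the membrane-actin linker MSN 422 ± 69.1 RPKM and the matrix protein FN1 156 ± 23.9 RPKM.

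Epithelial genes ranged from no read to above 100 RPKM. CDH1, which encodes E-cadherin, had 9 reads in the 6 libraries together, and GRHL2, a transcription factor of epithelial cells, had none. EPCAM, an epithelial surface protein, stood at 4.08 ± 0.554 RPKM, while the tight junction genes CLDN7 (36.9 ± 3.89 RPKM), CLDN4 (34.1 ± 3.22 RPKM) and CLDN12 (42.0 ± 2.77 RPKM) were well above 1 RPKM. Most claudins were low, with 5 of 18 at or above 1 RPKM in every library, against 50.9% of all genes, and a median of 0.101 RPKM. CLDN3, also a luminal marker, had 0.174 ± 0.0906 RPKM. N-cadherin (CDH2), which is often gained when E-cadherin is lost, had only 0.0450 ± 0.0250 RPKM, and the classical cadherins above 1 RPKM were CDH4 (8.78 ± 1.35 RPKM) and CDH11 (5.46 ± 1.22 RPKM). Among the transcription factors that repress epithelial genes, SNAI2 (16.5 ± 3.33 RPKM), ZEB1 (16.3 ± 1.69 RPKM) and ZEB2 (3.26 ± 0.428 RPKM) were present, SNAI1 had 0.418 ± 0.199 RPKM, and TWIST1, TWIST2 and FOXC2 had no read in any library.

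Of the receptors used to define TNBC, the hormone receptors ESR1 and PGR were at or near 0, and ERBB2 was above 1 RPKM in every library. ESR1, the estrogen receptor, had no read in any of the 6 libraries, where 3 reads in a library would be at most 0.0290 RPKM. PGR, the progesterone receptor, had 2 reads in all. ERBB2, which encodes HER2, measured 7.15, 6.74 and 6.30 RPKM in Jag1WT replicates 1, 2 and 3 and 7.33, 6.65 and 6.95 RPKM in those of siCtrl (6.85 ± 0.371, n = 6). These values span little, and they were 10.2 ± 0.562 times lower than those of EGFR (70.0 ± 3.17 RPKM), the related receptor for epidermal growth factor. GATA3, a luminal transcription factor, was at 2.35 ± 0.241 RPKM, and FOXA1, which opens chromatin for the estrogen receptor, at 0.168 ± 0.104 RPKM.

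Of 17 basal and myoepithelial markers measured, 8 passed 1 RPKM in every library, a share near the 50.9% of all genes. LAMB3, which encodes a chain of laminin-332, was at 286 ± 19.5 RPKM, and CAV1, the main protein of caveolae, at 71.0 ± 10.8 RPKM. Of the basal keratins, KRT15 had 3.41 ± 0.743 RPKM. KRT14 and KRT6A had no read, KRT17 had 0.0753 ± 0.0463 RPKM, and TP63, the transcription factor of basal cells, had 0.0712 ± 0.0486 RPKM. Among the markers used for breast cancer stem cells, CD44 (60.1 ± 2.81 RPKM) and ITGA6 (72.5 ± 5.10 RPKM) were above 50 RPKM. CD24, which is low in the CD44-high cells of the stem cell definition, was at 1.41 to 1.61 RPKM in 5 libraries and at 4.93 RPKM in Jag1WT 3. ALDH1A3 (7.51 ± 1.39 RPKM) was present, whereas ALDH1A1 had no read.

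Markers of other cell types were rare, in libraries that hold a single cell line. Of 10 fibroblast markers 1 passed 1 RPKM in every library (COL5A1, 8.08 ± 0.623 RPKM), and DCN, LUM, PDGFRA, FAP, COL1A2 and THY1 were each below 0.1 RPKM. No endothelial marker passed in all 6, with KDR at 1.13 ± 0.163 RPKM and CDH5 with 1 read in all. Of 10 leukocyte markers 2 passed. CD68, a lysosomal protein abundant in macrophages, had 65.4 ± 11.4 RPKM and CD14 1.57 ± 0.324 RPKM, while PTPRC, which encodes the common leukocyte antigen CD45, had 3 reads in the 6 libraries, and NKG7 had none. The summed RPKM of the leukocyte list ranged from 55.0 to 87.9 over the libraries and that of the endothelial list from 2.19 to 2.51. CD68 alone held 96.6% of the leukocyte sum (by mean RPKM), so the 2 sums do not compare these cell types. Adipocyte, neural, hepatocyte and erythroid markers had no member at or above 1 RPKM in every library. In a bulk culture, fewer cells with a transcript and less of it per cell cannot be told apart.

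**Figure D3:**
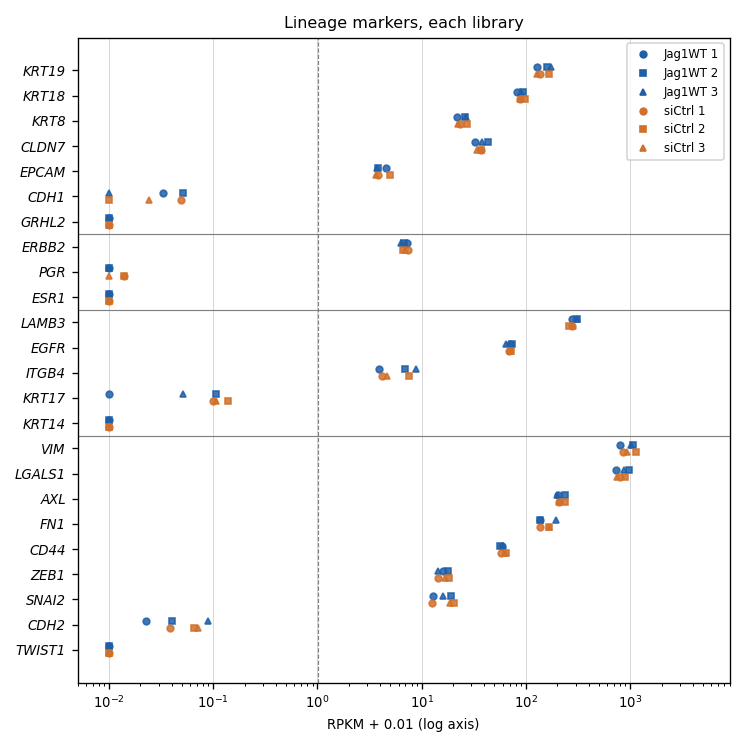
RPKM plus 0.01 (horizontal log axis) of luminal, receptor, basal and mesenchymal markers, from top to bottom between the grey lines, with 1 point per library (colors for groups, shapes for replicates); the dashed line is 1 RPKM and points at 0.01 had no read. VIM at 969 RPKM and LGALS1 lie at the right end, ESR1, GRHL2, KRT14 and TWIST1 at the left end.

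JAG1 itself was an abundant ligand gene. It lies on chr20:10637684-10673999 (GRCh38) and measured 72.3, 97.8 and 87.2 RPKM in Jag1WT replicates 1, 2 and 3 and 73.7, 105 and 88.6 RPKM in those of siCtrl (87.3 ± 12.8, n = 6). Its rank in single libraries ranged from 559 to 751, and the values of both groups overlapped, with replicate 1 lowest in each. The other ligands were far lower, with JAG2 at 0.286 ± 0.0570 RPKM, DLL4 at 0.102 ± 0.0414 RPKM and DLL1 at 0.0192 ± 0.0176 RPKM, and DLL3 had no read. Among the receptors NOTCH2 led with 36.1 ± 1.97 RPKM and was 4.75 ± 0.478 times higher than NOTCH1 (7.66 ± 0.754 RPKM), in 6 of 6 libraries. NOTCH3 (0.0545 ± 0.0197 RPKM) and NOTCH4 (0.0921 ± 0.0380 RPKM) were below 0.1 RPKM. Of 9 measured HES and HEY genes, the classical Notch targets, 2 passed 1 RPKM in every library. HES1 measured 9.16, 7.67 and 15.3 RPKM in Jag1WT replicates 1, 2 and 3 and 8.71, 9.05 and 9.53 RPKM in those of siCtrl (9.90 ± 2.71, n = 6), so that 1 library stood apart, and HEY1 had 3.12 ± 0.209 RPKM. Means of the other groups, in siJag1 from CPM divided by the gene length that the other libraries give, put the level of JAG1 at 26.2 RPKM in Jag1KO (rank 2322), at 21.8 RPKM in Jag1KO + ctrl, at 27.8 RPKM in siJag1 and at 102.3 RPKM in Jag1KO + rescue. Of the most abundant genes, 95, 92, 96 and 90 of the first 100 of the 6 libraries were also among the first 100 in Jag1KO, Jag1KO + ctrl, siJag1 and Jag1KO + rescue.

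Growth factor receptors were dominated by few members of each family. Of 56 receptor tyrosine kinases measured, 18 were at or above 1 RPKM in every library, against 50.9% of all genes, with a median of 0.174 RPKM. AXL, the receptor for the ligand GAS6, led with 216 ± 17.1 RPKM and exceeded EPHA2, an ephrin receptor with 141 ± 14.0 RPKM, in 6 of 6 libraries by 1.53 ± 0.0568 times. EGFR was above MET, the hepatocyte growth factor receptor (67.4 ± 3.22 RPKM), in 6 of 6 libraries by 1.04 ± 0.0345 times, and their means differed by less than the SD of either. FGFR1 (23.5 ± 1.48 RPKM) and EPHB2 (22.0 ± 1.67 RPKM) followed. The RNA of the ligand GAS6 was present at 27.2 ± 1.86 RPKM.

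The TGFβ family had 9 of 14 receptors at or above 1 RPKM in every library, against 50.9% of all genes. TGFBR2, which binds the ligand and activates the type I receptor, had 242 ± 14.3 RPKM and was 13.8 ± 2.18 times higher than TGFBR1 (17.8 ± 1.76 RPKM). The coreceptor ENG was at 0.296 ± 0.112 RPKM. In the TNF receptor family 15 of 25 passed, with TNFRSF12A, the receptor for TWEAK, at 172 ± 22.4 RPKM and the death receptor TNFRSF10B at 88.0 ± 17.2 RPKM, whereas the death receptor FAS was at 0.379 ± 0.0493 RPKM. NRP1, a coreceptor for semaphorins and VEGF, reached 185 ± 15.6 RPKM, and among the frizzled receptors FZD6 led with 21.3 ± 2.10 RPKM. Chemokine receptors were nearly silent, with 1 of 15 at or above 1 RPKM in every library, CXCR4 at 1.91 ± 0.288 RPKM. CXCR1 and CXCR2, the receptors for interleukin-8, had 3 and 2 reads in the 6 libraries, although CXCL8 was among the 25 most abundant genes. Of 45 nuclear receptors 23 passed, a share near the 50.9% of all genes. The clock genes NR1D1 (59.9 ± 21.8 RPKM) and NR1D2 (43.9 ± 3.86 RPKM) led, and the glucocorticoid receptor NR3C1 was at 19.6 ± 0.626 RPKM.

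Of 26 integrin subunits, the adhesion receptors for matrix, 13 were at or above 1 RPKM in every library, a share near the 50.9% of all genes. ITGA3, which pairs with ITGB1 to bind laminin, measured 441, 472 and 514 RPKM in Jag1WT replicates 1, 2 and 3 and 488, 501 and 494 RPKM in those of siCtrl (485 ± 25.7, n = 6). ITGB1 (341 ± 12.6 RPKM), the partner of most of the alpha chains, and ITGA2 (188 ± 7.61 RPKM), a collagen-binding chain, came next, ahead of the fibronectin-binding ITGA5 (102 ± 9.98 RPKM). ITGA3 exceeded ITGB1 in 6 of 6 libraries. ITGB4, the partner of ITGA6 in hemidesmosomes, was at 6.01 ± 2.06 RPKM, and the leukocyte subunits ITGAL and ITGA4 had no read and 1 read.

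The matrix genes with the highest levels were laminin chains, matricellular proteins and a collagenase. Of 12 laminin chains 8 passed, with a median of 17.3 RPKM. LAMB3 measured 279, 307 and 311 RPKM in Jag1WT replicates 1, 2 and 3 and 276, 259.9 and 282 RPKM in those of siCtrl (286 ± 19.5, n = 6). LAMB3 was 20.9 ± 1.85 times higher than LAMA3 (13.7 ± 0.953 RPKM), whose product joins the same laminin. In reads the gap was smaller, with 112227 for LAMB3 and 13431 for LAMA3 over the 6 libraries, so the ratio rests partly on the gene lengths used. Collagens were low, with 13 of 38 at or above 1 RPKM and a median of 0.196 RPKM. The transmembrane collagen COL13A1 (56.9 ± 11.5 RPKM) stood first, then COL4A2 (18.3 ± 2.45 RPKM) and COL6A1 (13.3 ± 2.05 RPKM). COL4A2, whose product joins that of COL4A1 in the same molecule, was 7.00 ± 0.958 times higher than COL4A1 (2.63 ± 0.332 RPKM). In reads they had 9893 and 3558 over the 6 libraries, a smaller gap, so this ratio too rests partly on the gene lengths used. Of the chains of fibrillar collagen I, COL1A1 had 1.05 ± 0.329 RPKM and COL1A2 3 reads in all. The list of collagen modifying enzymes had a median of 19.2 RPKM with 11 of 17 at or above 1 RPKM in every library, among them P4HB, a disulfide isomerase and prolyl hydroxylase subunit, at 506 ± 41.1 RPKM, the crosslinking LOXL2 at 91.9 ± 13.8 RPKM and LOX at 24.5 ± 7.68 RPKM. Among glycoproteins, CCN1 (253 ± 35.0 RPKM), FN1, CCN2 (71.3 ± 18.2 RPKM) and TNC (51.4 ± 5.20 RPKM) led. In this list 21 of 45 passed, a share near the 50.9% of all genes.

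Matrix proteases were led by a single gene. MMP1, at chr11:102789919-102798160 (GRCh38), measured 3409, 2321 and 3106 RPKM in Jag1WT replicates 1, 2 and 3 and 2979, 1808 and 2869 RPKM in those of siCtrl (2749 ± 583, n = 6). Replicate 2 was the lowest of each group. MMP1 exceeded the membrane-bound MMP14 (448 ± 36.4 RPKM) by 6.24 ± 1.74 times, and MMP10 (39.9 ± 10.6 RPKM) and MMP3 (22.2 ± 8.76 RPKM), stromelysins that lie in the same cluster on chromosome 11, were well behind. Over the whole family, these members included, 6 of 21 were at or above 1 RPKM in every library, with a median of 0.153 RPKM. The gelatinase MMP2 had no read and MMP9 had 0.153 ± 0.0832 RPKM. The inhibitor TIMP1 was at 145 ± 7.08 RPKM, 18.9 ± 4.09 times lower than MMP1 on the RPKM scale. In the plasminogen system, the urokinase PLAU measured 74.3, 210.4 and 76.8 RPKM in Jag1WT replicates 1, 2 and 3 and 85.4, 227 and 107 RPKM in those of siCtrl (130.0 ± 69.6, n = 6), highest in replicate 2 of each group and below 100 RPKM in 3 of the 6 libraries. Its receptor PLAUR was at 116 ± 12.6 RPKM and its inhibitor SERPINB2 at 557 ± 162 RPKM.

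**Figure D4:**
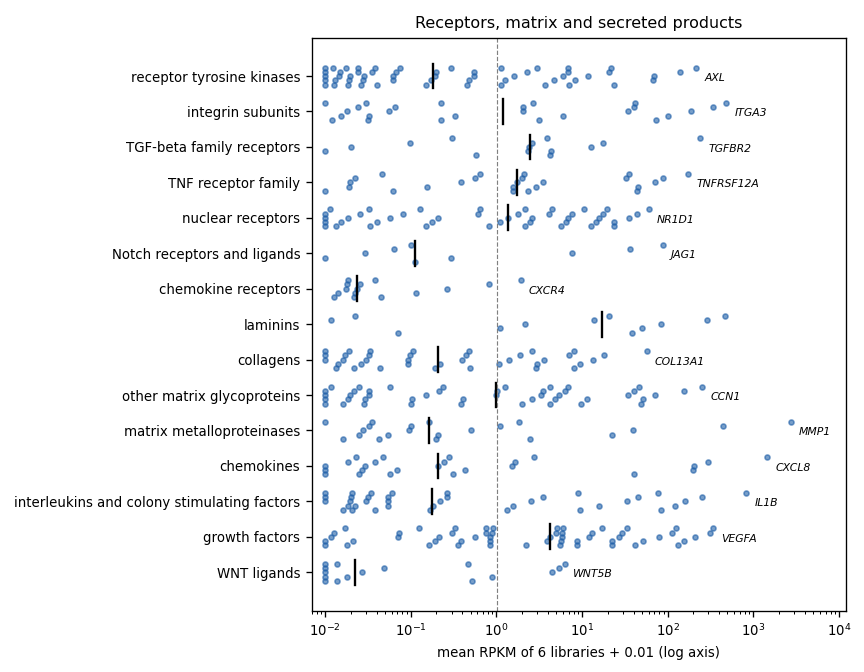
Mean RPKM of the 6 libraries plus 0.01 (horizontal log axis) for each measured member of 15 families of receptors, matrix and secreted products, with 1 point per gene, a black bar at the family median and, for all but laminins, the name of the highest member. MMP1 and CXCL8 lie above 1000 RPKM while the medians of their families are below 1 RPKM.

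The secreted signals with the highest levels were chemokines, interleukin-1 and VEGFA. CXCL8, at chr4:73740569-73743716 (GRCh38), measured 1495, 1648 and 1403 RPKM in Jag1WT replicates 1, 2 and 3 and 1276, 1249 and 1631 RPKM in those of siCtrl (1450.0 ± 171, n = 6). CXCL2 (294 ± 112 RPKM), CXCL3 (204 ± 63.7 RPKM) and CXCL1 (196 ± 52.0 RPKM), neighbors in the same chemokine cluster on chromosome 4, followed at similar levels, and reads between these near-identical paralogs are uncertain. CCL20, which attracts CCR6-bearing lymphocytes and dendritic cells, had 40.4 ± 6.22 RPKM. The other 20 of 25 chemokines were below 3 RPKM on average, and CXCL10 and CCL22 had no read. Of 38 interleukins and colony stimulating factors 14 passed. IL1B measured 746, 1007 and 699 RPKM in Jag1WT replicates 1, 2 and 3 and 764, 894 and 816 RPKM in those of siCtrl (821 ± 113, n = 6), and the cytokines IL1A (162 ± 34.6 RPKM), CSF2 (253 ± 37.2 RPKM), CSF1 (124 ± 14.3 RPKM), LIF (83.1 ± 6.49 RPKM), CSF3 (77.2 ± 21.8 RPKM) and IL6 (44.5 ± 9.82 RPKM) were all above 40 RPKM. PTGS2, the inducible cyclooxygenase, was at 705 ± 93.6 RPKM.

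Of 55 growth factors 30 passed 1 RPKM in every library, a share near the 50.9% of all genes. VEGFA, the main endothelial growth factor, led with 342 ± 11.6 RPKM. MIF (309 ± 58.6 RPKM) and STC1 (207 ± 50.1 RPKM) came next, and the EGF receptor ligands AREG (132 ± 43.8 RPKM), HBEGF (125 ± 60.2 RPKM) and EREG (80.1 ± 9.28 RPKM) were all abundant. TGFB1 (42.2 ± 3.00 RPKM) was 1 of the TGFβ ligands, with TGFB2 at 5.10 ± 1.13 RPKM. WNT ligands were low, with 3 of 16 at or above 1 RPKM, WNT5B (6.25 ± 0.690 RPKM), WNT7B (5.40 ± 1.47 RPKM) and WNT5A (4.43 ± 0.659 RPKM).

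Letters of promoters were read from RefSeq windows of 250 bases before and 50 after the start of transcription (GRCh38.p14). The windows covered 15139 of the 21411 genes. The 9 letters GGAATTTCC, of the kind bound by NF-κB, occurred on either strand in 0.461% of all 35116 windows and in 0.447% of the 21261 windows of genes in the RPKM data. They were found in 7 of the 600 windows of genes with a mean of at least 100 RPKM (1.17%). The share was 0.388% from 10 to 100 RPKM, 0.405% from 1 to 10 RPKM, 0.511% below 1 RPKM with reads and 0.243% without a read. The 7 windows were those of CXCL1, CXCL2, CXCL3, CXCL8, DUSP6, ICAM1 and NFKBIA. CXCL1, CXCL2 and CXCL3 are paralogs, so their windows are not independent. Among secreted products the letters were held by 7 of 25 windows of chemokine genes (28.0%). They were held by 0 of 42 windows of interleukin and colony stimulating factor genes and by 0 of 9 windows of matrix metalloproteinase genes. These windows covered 20 of 25, 25 of 38 and 9 of 21 measured genes. At the share of all windows, sets this small would mostly give 0, so the 0 counts do not set these families apart. Only these exact letters were searched, and other forms of the site were not. Of the chemokine genes with the letters, CXCL5 (0.416 ± 0.161 RPKM), CXCL11 (0.274 ± 0.173 RPKM) and CXCL10 (no read) were below 1 RPKM. The 4 chemokine promoters are shown because they belong to the 4 most abundant chemokines and hold the letters upstream of the start, at position -91 in CXCL8, -78 in CXCL1 and CXCL3 and -77 in CXCL2, counted from the start backward. Capitals mark these letters and TATAAA, and each sequence runs 5′ to 3′ from 110 bases to 1 base before the start.
CXCL8 (chr4:73740459-73740568, plus strand): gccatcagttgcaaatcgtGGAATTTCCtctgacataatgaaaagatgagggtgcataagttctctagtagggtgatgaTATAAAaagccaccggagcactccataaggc
CXCL1 (chr4:73869283-73869392, plus strand): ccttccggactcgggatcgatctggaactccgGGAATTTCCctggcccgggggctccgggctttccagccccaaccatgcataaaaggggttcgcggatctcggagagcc
CXCL2 (chr4:74099196-74099305, minus strand): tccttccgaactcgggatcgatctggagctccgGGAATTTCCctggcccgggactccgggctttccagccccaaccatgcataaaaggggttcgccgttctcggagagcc
CXCL3 (chr4:74038690-74038799, minus strand): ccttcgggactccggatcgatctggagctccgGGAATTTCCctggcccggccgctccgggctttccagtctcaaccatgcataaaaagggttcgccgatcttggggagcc
In all 4 the letters read GGAATTTCC on the strand of the gene, and CXCL8 alone held TATAAA, at position -31. A match is a description of letters and not of binding. TATAAA on the gene strand with its first base at positions -40 to -20 occurred in 2.30% of all windows and in 4.83% of the 600 windows of genes with a mean of at least 100 RPKM, against 1.39% of windows from 10 to 100 RPKM and 1.19% from 1 to 10 RPKM. Among windows of genes without a read it was 5.59%. On either strand and anywhere in the window TATAAA occurred in 11.5% of all windows, in 8.29% of those of genes in the RPKM data and in 10.3% of those with a mean of at least 100 RPKM. The abundant genes with these letters included MT2A, MT1X (298 ± 18.8 RPKM), PTGS2 and SERPINB2, and their 60 bases before the start are shown. Beside them are those of CCL20 and MMP10, secreted products below 100 RPKM that hold the letters.
MT2A (chr16:56608524-56608583, plus strand): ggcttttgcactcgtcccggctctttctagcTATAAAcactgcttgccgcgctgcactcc
MT1X (chr16:56682410-56682469, plus strand): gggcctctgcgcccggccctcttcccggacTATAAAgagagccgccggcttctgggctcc
PTGS2 (chr1:186680424-186680483, minus strand): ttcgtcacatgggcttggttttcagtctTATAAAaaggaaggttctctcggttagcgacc
SERPINB2 (chr18:63887645-63887704, plus strand): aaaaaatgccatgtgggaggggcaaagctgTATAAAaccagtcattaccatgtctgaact
CCL20 (chr2:227813782-227813841, plus strand): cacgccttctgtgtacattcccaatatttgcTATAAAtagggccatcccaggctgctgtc
MMP10 (chr11:102780629-102780688, minus strand): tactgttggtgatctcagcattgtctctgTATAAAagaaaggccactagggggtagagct
In these 6 the letters began at positions -32 to -29. MMP1, CSF3 and LIF had no entry among the windows.

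Among noncoding genes the mitochondrial ribosomal RNA RNR2 (4600.0 ± 471 RPKM) was highest. The next places were taken by short features and by copies of other genes, whose values are uncertain because near-identical or overlapping genes may share reads. How the reads were divided was not tested. MIR3654, a feature of 56 bases with 1349 ± 107 RPKM, lies inside CHCHD3 and a pseudogene, MIR4426 (608 ± 19.9 RPKM) inside the ribosomal protein pseudogene RPS27AP5, and RPL13AP5 (1265 ± 68.2 RPKM) and ANXA2P2 (678 ± 71.1 RPKM) are copies of RPL13A (360.4 ± 28.6 RPKM) and ANXA2 (332 ± 45.1 RPKM). The copies exceeded their parent genes 3.52 ± 0.126 and 2.05 ± 0.0948 times. Of the long noncoding RNAs, the snoRNA hosts GAS5 (439 ± 24.4 RPKM), SNHG5 (437 ± 32.3 RPKM) and SNHG29 (390.1 ± 32.0 RPKM) were the most abundant.

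The deposited table lists genes with at least 1 read in the 18 libraries, so that genes without any read are not in it. Within it 1832 genes (8.56%) had no read in any of the 6 libraries, of which 992 were protein coding. Of the 1832 genes, 952 had a single read in the other 12 libraries, and 50 had 10 or more. A count of 0 in a library allows up to 3 reads, and these limits cover counting error only. Families of other tissues had few reads, with 0 of 64 olfactory receptors, 0 of 18 taste receptors, 0 of 8 hemoglobins and 0 of 5 crystallins at or above 1 RPKM in every library. The taste receptor TAS2R5 (1.59 ± 0.636 RPKM) and the hemoglobin chains HBA2 (1.79 ± 0.812 RPKM) and HBB (1.53 ± 0.732 RPKM) were at or above 1 RPKM in 5 of 6 libraries each, and the crystallin CRYGS (1.02 ± 0.353 RPKM) in 3 of 6.

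Abundant genes differed between the libraries by a median coefficient of variation of 8.46% over the 549 genes with a mean of at least 100 RPKM. The steadiest was the chaperone HSP90AB1 (627 ± 9.80 RPKM, 1.56%), followed by RPS3A, RPS25, FKBP1A and BCAP31 (1.62% to 2.30%). The most variable were PLAU (53.5%), the cystatin CST1 (48.6%), HBEGF (48.2%), CXCL2 (38.1%) and the mitochondrial tRNA TRND (33.3%). PLAU measured 74.3, 210.4 and 76.8 RPKM in Jag1WT replicates 1, 2 and 3 and 85.4, 227 and 107 RPKM in those of siCtrl (130.0 ± 69.6, n = 6). It was highest in replicate 2 of both groups, as were HBEGF and CXCL2, while SERPINB2 and the chaperone HSPA8 were lowest there. CST1 differed, at 263 RPKM in Jag1WT 3 and 83.5 to 146.6 RPKM in the other 5 libraries.

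Proliferation genes also differed by replicate number. Of 26 proliferation genes measured, 24 passed 1 RPKM in every library. MKI67, the antigen Ki-67, measured 2.89, 8.79 and 2.52 RPKM in Jag1WT replicates 1, 2 and 3 and 2.82, 12.3 and 4.91 RPKM in those of siCtrl (5.71 ± 4.01, n = 6). CCNB1, the mitotic cyclin, measured 9.40, 40.2 and 11.2 RPKM in Jag1WT replicates 1, 2 and 3 and 13.3, 47.0 and 17.6 RPKM in those of siCtrl (23.1 ± 16.2, n = 6). Both values of replicate 2 were above the other 4 in each gene. The same held for 13 of the 24 genes (54.2%), among them TOP2A, PLK1, TYMS and RRM2, and for 2408 of the 10892 genes at or above 1 RPKM (22.1%). PCNA and MCM2 did not follow, with ratios of the means of 0.903 and 0.962. CCND1, cyclin D1, was lower in replicate 2, with 83.1 and 85.3 RPKM against 94.7 to 113.0 RPKM. Summed RPKM also differed, from 370840 in Jag1WT 1 to 417101 in siCtrl 2, and replicate 2 was highest in both groups in 282 of the 549 abundant genes as deposited and in 183 with every library set to the same sum. Neither the culture day nor a sequencing batch is in the labels, and their part in this spread was not tested.

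**Figure D5:**
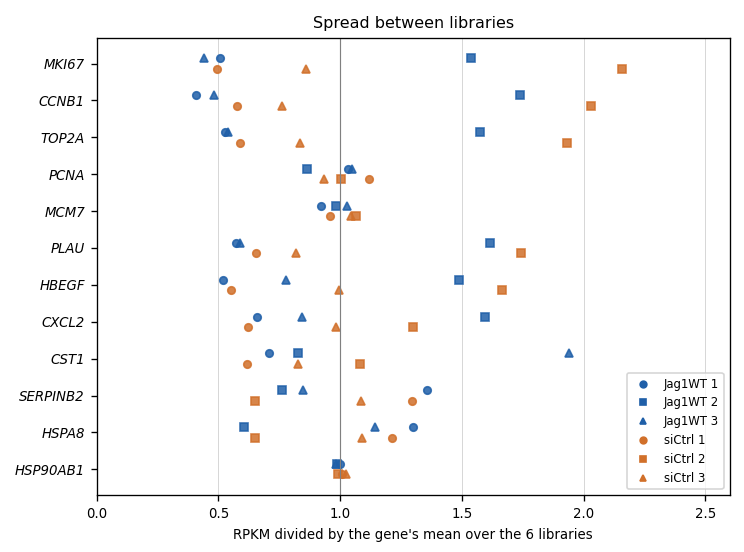
RPKM of each library divided by the mean of the gene over the 6 libraries (horizontal axis), for 12 genes with large or small spread; colors stand for groups and shapes for replicates. Squares, replicate 2, lie at the right for MKI67, CCNB1, TOP2A, PLAU and HBEGF and at the left for SERPINB2 and HSPA8, and all points of HSP90AB1 lie close to 1.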

How the data were processed

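Stranded mRNA libraries (TruSeq) of the 3D cultures were sequenced in pairs of 50 bases. Per the labels, the authors used hg38, featureCounts, edgeR (3.28.0), R (3.6.1) and MultiQC (1.5), and the aligner is not given in the sources used here. The deposited counts are whole numbers of uniquely mapped reads per gene. The deposited CPM, treated here as a signal, are these counts divided by the TMM-scaled library size. In the deposited RPKM each CPM value of the authors is divided by the length of its gene, 1 length per gene in all libraries. No label matched 3 of the RPKM columns, which were left out. For siJag1, whose CPM columns match their labels, CPM was divided by the gene lengths of the other libraries.

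Means, SDs, ranks and shares were computed with Python 3.11.15 (pandas 2.3.3, numpy 2.4.6) over the 6 libraries and checked on simulated data. Genes were counted as present at 1 RPKM in each library. Totals were 13336576 to 15328059 reads per library, and the levels of short or rare transcripts rest on few reads. RefSeq gene types matched 21048 of 21411 Entrez numbers, and 292 genes without a symbol are not named. No group was compared by a test. Deviations of same-numbered Jag1WT and siCtrl libraries from their group means correlated at 0.486, 0.615 and 0.125 for replicates 1, 2 and 3. These values are across 11582 genes with a mean of at least 1 RPKM. Differently numbered libraries correlated at -0.567 to 0.175, the highest being Jag1WT 1 with siCtrl 3. Replicate numbers thus pair the libraries for replicates 1 and 2, and a pairing of replicate 3 is not shown.

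The members and the 57 gene lists were chosen with earlier results of these data known. Genes were named by rule: the first 25, the first 5 of each list with all cell type markers, every Notch receptor and ligand, the 5 steadiest and 5 most variable genes with at least 100 RPKM, the first 10 noncoding genes, and JAG1, ESR1, PGR and ERBB2. Some genes that the rule takes are not reported here. Other names were chosen after their values were seen.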

Additional observations from a re-analysis of the deposited data

Results flagged for a closer look

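Among 264 sets of 6 values (whole-library measures and levels of genes taken by the naming rule with at least 10 reads in each library), 10 had a library farther from the rest than Dixon's 95% critical value allows, and chance flags about 1 in 20 sets. That rate assumes 6 independent values, whereas same-numbered libraries of replicates 1 and 2 varied together. In Jag1WT 3 the level of CST1 was 263 RPKM against 83.5 to 146.6 RPKM in the other 5 libraries, that of HES1 was 15.3 RPKM against 7.67 to 9.53 RPKM, and that of PLXND1 was 11.9 RPKM against 7.21 to 8.42 RPKM. CD24 was at 4.93 RPKM in Jag1WT 3 against 1.41 to 1.61 RPKM, CLDN4 at 40.5 RPKM in Jag1WT 2 against 31.4 to 33.6 RPKM, and MIR3654 at 1146 RPKM in siCtrl 3 against 1323 to 1424 RPKM. ITGA2 stood at 172.6 RPKM in siCtrl 1 and at 188 to 194 RPKM elsewhere, CSTB at 108 RPKM in Jag1WT 1 and at 121 to 127 RPKM elsewhere. BCAP31 at 106 RPKM in siCtrl 2 (111 to 113 RPKM elsewhere) and FKBP1A at 211 RPKM in Jag1WT 2 (201 to 204 RPKM elsewhere) stood apart within very narrow ranges. In the libraries that were not described, NPTX1, neuronal pentraxin, which had no read in any of the 6, reached a mean of 5.76 CPM in Jag1KO + rescue (4.77 to 7.42 CPM in its 3 libraries).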

How the results depend on the processing

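The number of genes at or above 1 RPKM was 10892 and stayed within 1.5 times of it except at a threshold of 5 RPKM (7000 genes). Without each library in turn it was 10927 to 10957. The share of RPKM in the first 100 genes was 37.1% ± 1.04, 36.8% to 37.3% without each library in turn, 22.9% for CPM not divided by length, and 24.8% with ribosomal protein and mitochondrial genes left out. Of the first 25 genes 24 to 25 remained without each library in turn, and 15 by CPM. The 1832 genes with no read became 2043 to 2178 without each library in turn, 2820 with Jag1WT only, 2866 with siCtrl only, 5686 when at most 3 reads were allowed in each library, and 251 when no RPKM above 0 was allowed in 9 other libraries too. With fewer libraries, fewer zeros are required. The list members at or above 1 RPKM numbered 637, and 638 to 642 without each library in turn. Rescaling each library to the same sum, leaving out TMM, medians and log means, other rules for presence and a minimum of 10 reads kept these numbers within the limits. For 345 named genes, another scale or average moved 311 of 1380 levels by more than the SD over the 6 libraries. CPM moved 256 of 345 ranks. Leaving out a library or using 1 group moved 0 of 2760 levels by more than that SD. With 6 libraries neither change can move a mean that far, whatever the data, so this count says nothing about stability. No paired analysis was possible because no groups were compared and the results come from no test between them. Rare transcripts are limited by depth, since 3 reads in a library cannot be told from 0.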
